A study of Solanum lycopersicum with 16 samples.

Results

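Roots of tomato seedlings saturated with 200 mM NaCl were compared with roots of control seedlings, separately at 2 h and at 24 h, for 22 transcripts measured by SYBR Green qRT-PCR. The comparison takes in 4 of the 16 samples of the series, and every well and every target assayed in them. The targets were the 18 SlIDD genes, SlIDD-like1, SlSTOP1, STF4 and CRF5, and ubiquitin was the reference gene. All seedlings were tomato of the cultivar M82, which the study calls wild-type, of 3 weeks and grown in potting medium in a greenhouse. The medium of the salt group was saturated with tap water holding the NaCl at pH 6.8, and that of the control group with water of the same pH. In growth and treatment the groups thus shared everything but the salt as far as the sources say. Each sample of the series is a plate of wells: the first plate held ubiquitin and SlIDD1 to SlIDD11, the second ubiquitin, SlIDD-like1, SlIDD12 to SlIDD18 and the 3 transcripts outside the family. Salt and control wells therefore never shared a plate, and a difference by salt and one by plate cannot be told apart. On either plate the 2 h wells were taken to be those of rows A to D, and the 24 h wells those of rows E to H. The sample labels instead assign a time to each plate, so every time given here rests on that reading of the rows. The tissue came from the label, since no transcript that marks root or shoot was assayed.

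IDD proteins (INDETERMINATE DOMAIN) are plant zinc finger transcription factors named after the maize gene that controls flowering time. In Arabidopsis several of them act in the root, where JACKDAW, MAGPIE and related proteins work with SHORT-ROOT and SCARECROW to set up the layers of the ground tissue. Others, such as Arabidopsis SGR5 and rice LPA1, act in gravitropism and plant form. Salt in the medium lowers the water that roots can take up and brings sodium into the tissue, and roots are the first organ to meet it.

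Of 384 wells on the plates of salt and control roots, 353 had a Ct value and 348 were used. Ct is the PCR cycle at which a well passes the detection threshold, so 1 cycle less stands for about a doubling of template, and Ct ran from 14.32 to 30.99. Up to 4 wells stood behind a target and group. The wells without a value were uneven, with 16 on the second control plate and 2 on the second salt plate, and whether such a well failed or held no template cannot be told apart. Nothing ties wells to plants, so p-values measure the spread between wells and are too small where wells share a plant. In the plates of both groups the mean Ct of the plate columns in rows A to D ran along with that in rows E to H (Pearson r across the 12 columns from 0.930 to 0.993, 4 plates), whereas it ran the other way between the first and second plate (r from -0.461 to -0.192, 4 pairs). The columns read as ubiquitin had the lowest mean Ct over rows A to D in 8 of 8 first plates and 8 of 8 second plates of the series. These values describe which columns hold the same target and do not show which rows belong to which time.

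Ubiquitin itself came up earlier in salt roots. At 2 h its Ct was 15.07, 15.24, 15.31 and 14.84 on the first salt plate and 14.54, 14.32, 14.75 and 14.57 on the second, against 16.56, 16.88, 16.58 and 16.00 and then 15.74, 16.31 and 16.20 on the control plates. The groups did not overlap, and the mean changed by -1.49 cycles (exact two-sided permutation test, p = 1.554e-04, the smallest that 8 against 7 wells allow). At 24 h the salt wells lay at 15.17, 15.54, 15.71 and 15.75 on the first plate and at 15.53, 15.12, 15.09 and 15.43 on the second. The control wells of that time fell into 2 levels by plate, with 17.52, 17.84, 17.61 and 17.89 on the first and 16.00, 16.00, 16.07 and 16.26 on the second. The change at 24 h was therefore -2.17 cycles by the first plate and -0.79 by the second (exact two-sided p = 0.0286 on each, the smallest that 4 against 4 wells allow). Most targets came up earlier too, 10 of 11 on the first plate and 11 of 11 on the second at each time. Without overlap between the groups, salt wells were earlier for 7 and 10 targets at 2 h and for 9 and 9 at 24 h. A change of all transcripts together and a change in the amount of cDNA per well cannot be told apart in such data, nor can fewer cells of a type and less RNA per cell. All log2 fold changes that follow are salt over control relative to ubiquitin, averaged over both plates.

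**Figure D1:**
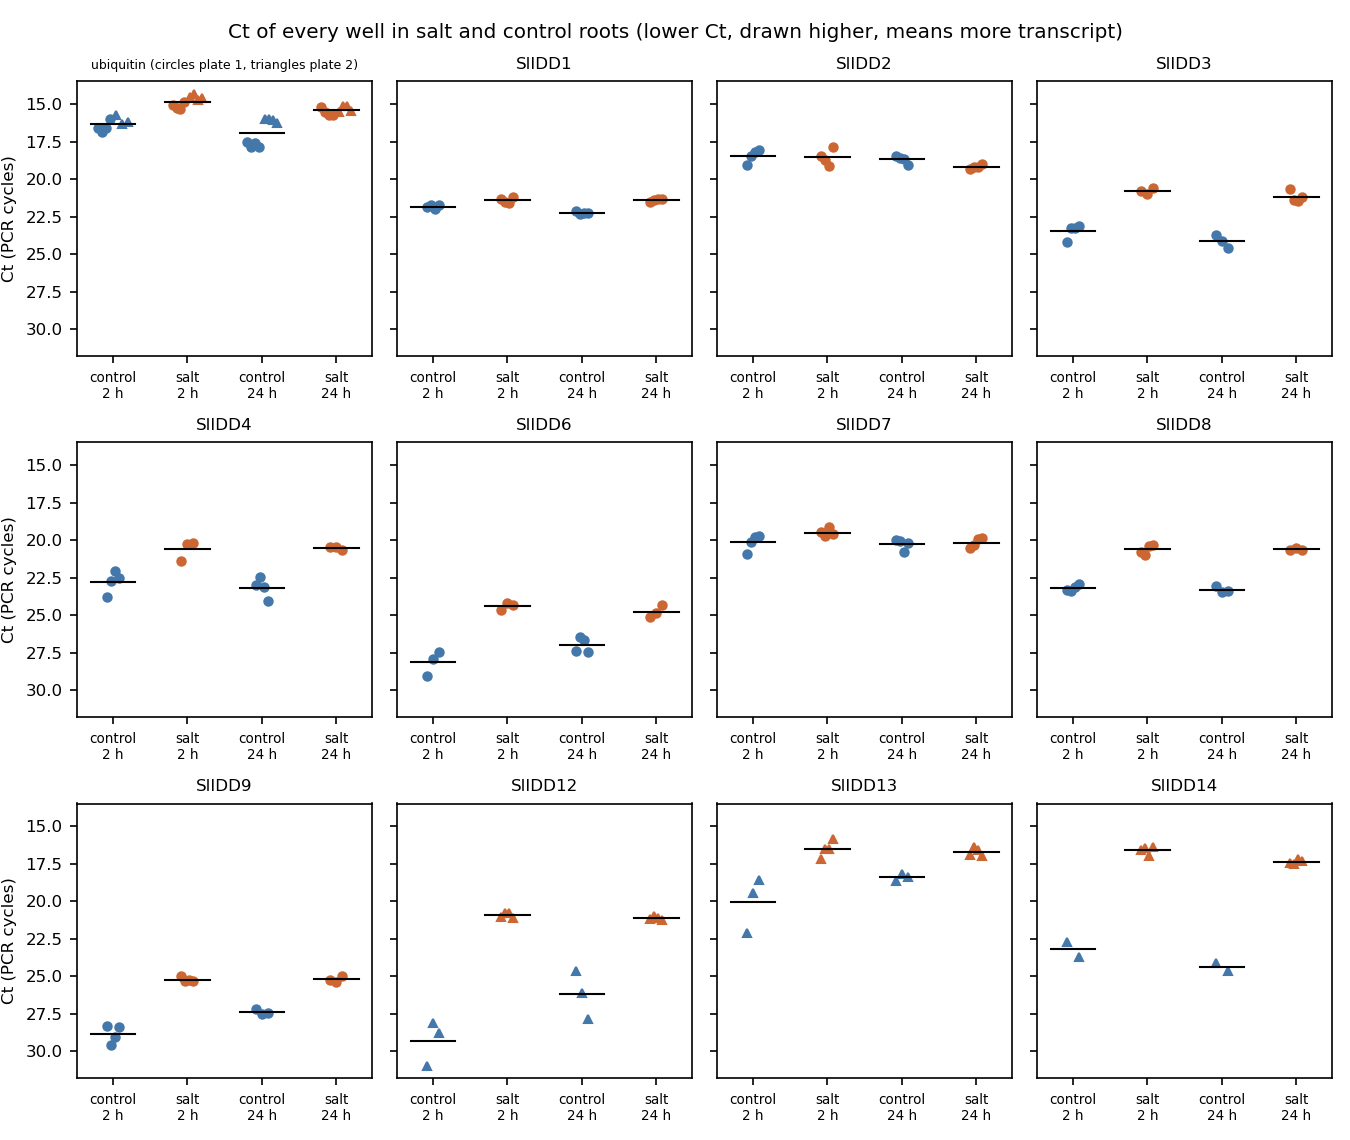
Ct in PCR cycles (axis turned, so that more transcript is drawn higher) of every used well of ubiquitin, the 9 targets that passed the test at either time, SlIDD4 and SlIDD13, in control roots (blue) and salt roots (orange) at 2 h and 24 h. Circles are wells of the first plate, triangles of the second, and black lines are means; SlIDD12 and SlIDD14 show the widest gaps, and the control wells of ubiquitin at 24 h split by plate.

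At 2 h 6 of the 22 targets were higher (27.3%) and 2 lower (9.09%) in salt roots, and at 24 h 4 were higher (18.2%) and 2 lower (9.09%), at adjusted p under 0.05 from limma. In all, 9 targets passed at either time, 5 of them at both and none in opposite directions, and 13 passed at neither. All 9 are SlIDD genes, but so were 18 of the 22 targets assayed, so this lies near the share of the whole list. The counts rested on few wells: with the third well row of 2 h left out 3 passed upward and 0 downward, while at 24 h 2 were higher without row 3 or row 4, and 1 was lower without row 1, 2 or 4. The median log2 fold change of the 22 targets was -0.11 at 2 h and 0.20 at 24 h, so the middle of the list lay near 0 once ubiquitin was subtracted.

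SlIDD14 (Solyc10g084180, on chromosome 10) was the target with the smallest adjusted p at each time. It belongs with SlIDD6, SlIDD7 and SlIDD13 to a branch of the family next to Arabidopsis IDD9, IDD10 and IDD13, and in tomato acts on stem thickness and leaf shape. At 2 h its Ct was 16.61, 16.44, 17.02 and 16.41 in salt roots and 22.71 and 23.71 in the 2 control wells that had a value. At 24 h it was 17.46, 17.50, 17.16 and 17.33 in salt roots against 24.11 and 24.66 in controls. Every salt well was thus over 5 cycles earlier than every control well, and control wells were few at both times. The fold was 34.1 at 2 h and 46.6 at 24 h, a log2 fold change of 5.54 at the later time (standard error 0.40, 95% interval from 4.69 to 6.39, adjusted p = 2.29e-08). SlIDD14 passed under each of the 4 choices of reference at both times and in each of the 4 fits that left a well row out. A possible exchange of control plates between the tissues is not settled, and with control shoots in the place of control roots the log2 fold change of SlIDD14 was 1.96 at 2 h (adjusted p = 4.02e-04) and 1.20 at 24 h, where it did not pass (adjusted p = 0.0622). With only 2 control wells the exact permutation test cannot give a p below 0.0667, which is the p it gave at both times.

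The level of SlIDD14 in salt roots was also the highest of the 8 groups of the series at each time. On the scale of minus delta Ct, the ubiquitin Ct minus that of the target, it lay at -1.79 at 2 h and -1.94 at 24 h. The next highest groups were flooded roots at 2 h (-3.73) and control shoots at 24 h (-3.15). Low pH roots lay at -4.44 at 2 h, where their ubiquitin differed between the plates. These levels use ubiquitin of both plates, and ranks by that of the second plate, which holds SlIDD14, were not computed. Control roots, in contrast, were the lowest of the 8 groups at 2 h (-6.89) and the second lowest at 24 h (-7.49). No other target had its highest level of all groups in salt roots. In a direct comparison that uses no control well, chosen after the data were seen, SlIDD14 was higher in salt than in low pH roots, with a log2 difference of 2.64 at 2 h (standard error 0.69, adjusted p = 0.0295) and of 5.74 at 24 h (standard error 0.54, adjusted p = 6.78e-05). At 2 h it was the 1 target higher in salt than in low pH roots (4.55% of 22), and SlIDD1, SlIDD3 and SlIDD9 were lower (13.6%). The count of calls, 4 here, was 0 without row 1, 3 or 4 and 2 without row 2. It was 1 with ubiquitin of the same plate, 14 against the mean of all targets and 13 with no reference. At 24 h SlIDD14 was the only target called between these groups against ubiquitin of both plates (4.55% higher and 0% lower). The count of calls was then 5 with ubiquitin of the same plate, 19 against the mean of all targets and 17 with no reference. With the wells of row H whose names repeat left out on both plates, 8 targets were called. Against flooded roots the log2 differences of SlIDD14 were 1.94 (standard error 0.29, adjusted p = 1.04e-04) and 5.13 (standard error 0.37, adjusted p = 2.18e-06). There the test called 13.6% of targets upward at 2 h and 22.7% downward, and at 24 h 18.2% upward and 31.8% downward, with STF4 among the higher and CRF5 among the lower, 2 targets whose flood root columns are in doubt as given further on. Of these 4 differences of SlIDD14, ubiquitin of the same plate ended the call against low pH roots at 2 h alone (0.89, adjusted p = 0.224). That call was also lost without row 1, 3 or 4 (log2 difference from 2.29 to 2.82, adjusted p from 0.114 to 0.132). At 2 h the mean Ct of ubiquitin in low pH roots was 14.55 by the first plate and 17.49 by the second.

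The other members of that branch moved in different ways. SlIDD6 (Solyc11g069240) had Ct values of 24.65, 24.19 and 24.32 in salt roots at 2 h and of 29.04, 27.93 and 27.49 in controls. It rose 4.83-fold (log2 fold change 2.27, adjusted p = 0.00352), a call lost without row 3 (adjusted p = 0.0530) and with control shoots in the place of control roots (-0.29). At 24 h its salt wells lay at 25.13, 24.86 and 24.31 and its control wells at 27.39, 26.44, 26.65 and 27.45, still without overlap, but relative to ubiquitin the log2 fold change was 0.74 and did not pass (95% interval from -0.23 to 1.70). SlIDD7 (Solyc06g075250), by contrast, was lower at 24 h, by 2.63-fold (log2 fold change -1.40, standard error 0.40, 95% interval from -2.24 to -0.55, adjusted p = 0.0137). Its own Ct did not move, with salt wells at 20.55, 20.34, 19.94 and 19.88 and control wells at 20, 20.07, 20.76 and 20.21, and the groups overlapped. The fall is thus one relative to ubiquitin, and with no reference the value was 0.08. It passed in 1 of the 4 fits that left a well row out. At 2 h SlIDD7 had salt wells from 19.15 to 19.74, control wells from 19.73 to 20.94 and a log2 fold change of -0.85 (adjusted p = 0.0794).

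SlIDD13 (Solyc09g007550), which in tomato shares the roles of SlIDD14 in stem and leaf form, passed at neither time against ubiquitin of both plates. In salt roots its wells read 17.16, 16.49, 16.52 and 15.87 at 2 h and 16.94, 16.39, 16.60 and 17.02 at 24 h. The control wells read 22.13, 19.44 and 18.58 at 2 h, a spread of over 3 cycles, and 18.66, 18.18 and 18.42 at 24 h. Salt wells were earlier without overlap at both times, but the log2 fold change did not pass at 2 h (2.05, 95% interval from 0.30 to 3.79) or at 24 h (0.20, from -0.63 to 1.04). It did pass at 24 h when each plate's own ubiquitin was used (0.89, adjusted p = 0.00848), and at 2 h with no reference (3.54, adjusted p = 0.00307) and in one fit over all 4 root groups (adjusted p = 0.0141). Over the 4 genes of the branch 2 were higher at 2 h, against 27.3% of all targets, and at 24 h 1 was higher and 1 lower, against 18.2% and 9.09%, which with so few genes lies near the share of the whole list. The median log2 fold change of the branch was 2.16 and then 0.47.

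In the group around rice LPA1, the gene for tiller angle and shoot gravitropism, SlIDD12 (Solyc01g005060) stood apart. Its salt wells lay close together at 21.07, 20.79, 20.80 and 21.11 at 2 h and at 21.16, 21.02, 21.10 and 21.29 at 24 h. Its control wells were late and wide, with 30.99, 28.15 and 28.77 at 2 h and 24.63, 26.12 and 27.87 at 24 h. The groups were far from overlapping, and SlIDD12 was higher at both times, 116-fold at 2 h and 12-fold at 24 h (95% interval of the log2 fold change from 2.03 to 5.14). The level in control roots was the lowest of all 8 groups of the series at both times, at -12.98 and -9.31 on the scale of minus delta Ct. The other 7 groups, shoots included, lay between -7.30 and -5.92 at 2 h and between -8.41 and -5.71 at 24 h, and salt roots had the second highest level at each time (-6.12 and -5.72). These levels use ubiquitin of both plates, and ranks by that of the second plate, which holds SlIDD12, were not computed. Set directly against the other stressed roots, the salt roots did not pass a test at either time against ubiquitin of both plates. The log2 differences were 0.30 and 1.07 from low pH roots and 0.47 and 0.22 from flooded roots, with adjusted p from 0.105 to 0.773. Ubiquitin of low pH roots split by plate, at 14.55 and 17.49 at 2 h and 13.745 and 16.13 at 24 h. In salt roots it lay at 15.11 and 14.54, then at 15.55 and 15.29. The mean Ct of SlIDD12 was 20.94 in salt and 22.44 in low pH roots at 2 h, and 21.14 and 21.56 at 24 h. The size and sign of the differences from low pH roots thus depend on which plate's ubiquitin is used. All folds of SlIDD12 in stressed roots share the control wells of the second root plate. Against them the log2 fold change was 6.56 in low pH and 6.40 in flooded roots at 2 h. At 24 h it was 2.52, which did not pass, and 3.37. Whether the control wells were low or every stress raised SlIDD12 was not tested. With control shoots in the place of control roots the log2 fold change in salt roots was 1.19 at 2 h (adjusted p = 0.0170) and 2.69 at 24 h (adjusted p = 5.65e-04).

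The study describes SlIDD9 (Solyc06g072360) as close to Arabidopsis STOP1, the factor needed for growth in acid and aluminium-rich soil. It also reports synteny between SlIDD9 and SlIDD-like1 of this group, and which kinship holds was not tested. SlIDD9 passed at 2 h alone. Its Ct was 25.02, 25.35, 25.29 and 25.35 in salt roots and 28.32, 29.57, 29.07 and 28.38 in controls at 2 h, when it rose 4.26-fold. With control shoots in the place of control roots the call turned, to a log2 fold change of -1.94 (adjusted p = 0.0019). At 24 h the salt wells were the same as before, at 25.24, 25.41 and 25.01, and the controls had come down to 27.23, 27.50 and 27.47. The log2 fold change of 0.70 then did not pass (95% interval from -0.12 to 1.51). SlIDD-like1 (Solyc03g098070), which in tomato sets the position of the stigma, had salt wells of 20.59, 21.73, 20.58 and 21.50 and control wells of 21.57, 21.29 and 21.22 at 24 h. Relative to ubiquitin this gave -1.22 (95% interval from -2.19 to -0.25, adjusted p = 0.0519), narrowly above the threshold. SlIDD5 (Solyc05g054030), the tomato gene obscuravenosa of the bundle sheath extensions of leaf veins, had -0.79 at 2 h and -0.10 at 24 h and did not pass, though each plate's own ubiquitin gave -0.79 at 24 h (adjusted p = 0.0155). The study lists M82, the cultivar of these seedlings, among the obscuravenosa mutants. Over these 4 genes 2 were higher at 2 h and 1 at 24 h, near the 27.3% and 18.2% of all targets for so short a list, with median log2 fold changes of 0.86 and 0.30.

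**Figure D2:**
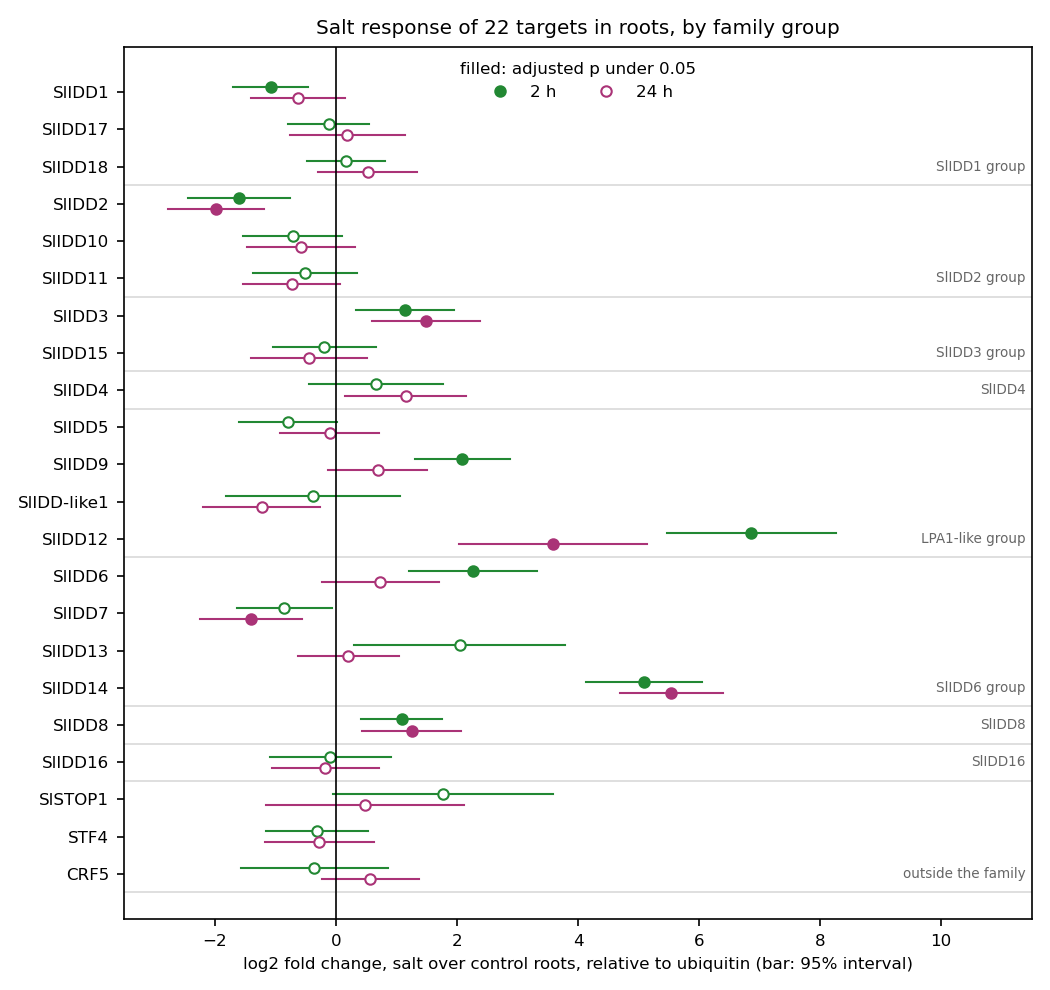
Log2 fold change of salt over control roots relative to ubiquitin (horizontal axis, bars for the 95% interval) of the 22 targets, in family groups from top to bottom, at 2 h (green) and 24 h (purple). Filled points passed at adjusted p under 0.05; SlIDD14 lies at 5.09 and 5.54 and SlIDD12 at 6.86 and 3.59, whereas all other targets lie between -1.98 and 2.27.

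SlIDD3 (Solyc09g074780) and SlIDD8 (Solyc07g053570), a relative of Arabidopsis genes of root development, were higher at both times. SlIDD3 read 20.81, 20.98 and 20.61 in salt roots and 24.17, 23.23, 23.24 and 23.11 in controls at 2 h, and 20.69, 21.41, 21.45 and 21.19 against 23.75, 24.13 and 24.58 at 24 h. It was higher 2.21-fold and 2.80-fold. SlIDD8 read 20.77, 20.98, 20.41 and 20.33 against 23.31, 23.40, 23.13 and 22.96 at 2 h, and 20.63, 20.50 and 20.64 against 23.06, 23.49 and 23.40 at 24 h. Wells of both genes were earlier in salt roots with no overlap at either time, with a change of mean Ct between -2.96 and -2.58 cycles, and the folds of SlIDD8 were 2.12 and 2.38. Relative to ubiquitin the calls depended on single rows. At 2 h SlIDD3 did not pass without row 1, 3 or 4 and SlIDD8 without row 1 or 3, and at 24 h SlIDD3 did not pass without row 3 or 4 and SlIDD8 without any of the 4 (adjusted p from 0.0502 to 0.127). Both were also short of the threshold at 2 h against the mean of all targets, at 0.41 and 0.35, as was SlIDD8 at 24 h against ubiquitin of the same plate, at 0.56. With control shoots in the place of control roots SlIDD3 turned to -1.13 at 2 h (adjusted p = 0.0052) and -0.35 at 24 h, and SlIDD8 had 0.61 and 0.085, which did not pass. SlIDD15 (Solyc09g065670), grouped with SlIDD3, did not share the change, with -0.19 at 2 h and -0.44 at 24 h (95% interval from -1.40 to 0.52). SlIDD4 (Solyc04g008500), kin of Arabidopsis RAVEN, a root patterning gene, read 21.36, 20.29 and 20.20 against 23.80, 22.71, 22.06 and 22.55 at 2 h, and 20.48, 20.49 and 20.64 against 23.00, 22.47, 23.14 and 24.07 at 24 h. The wells did not overlap, but with log2 fold changes of 0.67 and 1.15 SlIDD4 did not pass (95% interval at 24 h from 0.15 to 2.15, adjusted p = 0.0726).

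The group of SlIDD2, SlIDD10 and SlIDD11 lay below 0 in all 3 members at both times, with medians of -0.71 and -0.73. Of all 22 targets 12 lay below 0 at 2 h and 10 at 24 h. SlIDD2 (Solyc06g062670) was the most strongly lowered target. Its Ct was 18.46, 18.75, 19.12 and 17.85 in salt roots and 19.09, 18.45, 18.19 and 18.04 in controls at 2 h, wells that overlap. At 24 h the salt wells lay at 19.33, 19.17, 19.22 and 18.97 and the control wells at 18.45, 18.56, 18.65 and 19.03. It was the only target whose mean Ct was later in salt roots at both times, by 0.10 and 0.50 cycles. SlIDD2 was thus lower relative to ubiquitin at both times, though at 2 h it did not pass without row 3 (adjusted p = 0.0577), and at 24 h it was also lower with no reference (-0.50, adjusted p = 0.0194). With control shoots in the place of control roots it had 1.27 and 0.87 and did not pass. SlIDD10 and SlIDD11 had -0.71 and -0.51 at 2 h and -0.57 and -0.73 at 24 h and did not pass, but did so at 24 h by each plate's own ubiquitin (-1.26 and -1.42) and at both times against the mean of all targets. With no reference both lay above 0, at 0.78 and 0.99 at 2 h and at 0.91 and 0.75 at 24 h. SlIDD11 (Solyc03g121660) lies in a duplicated block with SlIDD2, and its salt wells, from 19.01 to 19.10 at 24 h, were earlier than its control wells, from 19.70 to 20.02. SlIDD10 had salt wells at 21.16 and 21.53 then, also earlier than its control wells, from 21.96 to 22.51.

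In the group of SlIDD1, SlIDD17 and SlIDD18 only SlIDD1 (Solyc02g085580) passed against ubiquitin of both plates, and only at 2 h. Its Ct was 21.35, 21.53, 21.60 and 21.16 in salt roots and 21.88, 21.73, 21.99 and 21.71 in controls, and at 24 h 21.53, 21.37, 21.31 and 21.32 against 22.10, 22.33, 22.24 and 22.28. The salt wells were the earlier ones at both times without overlap. The lower value relative to ubiquitin, -1.08 at 2 h and -0.62 at 24 h, thus comes from a Ct that moved by less than that of ubiquitin, and at 2 h it did not pass without row 3 (adjusted p = 0.0577). SlIDD17 and SlIDD18 had log2 fold changes of -0.12 and 0.17 at 2 h and of 0.19 and 0.53 at 24 h. Ubiquitin of the same plate, whose controls at 24 h split by plate, gave calls at 24 h for all 3, with -1.31 for SlIDD1 (adjusted p = 2.23e-04), 0.88 for SlIDD17 (adjusted p = 0.0415) and 1.22 for SlIDD18 (adjusted p = 3.76e-04). Against the mean of all targets SlIDD1 passed then as well (-1.03, adjusted p = 6.58e-05), and with control shoots in the place of control roots it turned to 1.42 at 2 h (adjusted p = 0.00263). SlIDD16 (Solyc08g063040), known from mutants that tolerate salt and drought differently, had -0.09 (95% interval from -1.09 to 0.91) and -0.17 (from -1.06 to 0.72). The 95% intervals of SlIDD17 and SlIDD18 ran from -0.79 to 0.56 and from -0.48 to 0.81 at 2 h. At 24 h they ran from -0.76 to 1.14 and from -0.29 to 1.34. For these targets and SlIDD16, a change of a size within the interval is not excluded by these wells.

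Outside the family no target passed at either time against ubiquitin of both plates. SlSTOP1, the tomato counterpart of the Arabidopsis proton tolerance factor, had log2 fold changes of 1.77 at 2 h (95% interval from -0.05 to 3.59) and 0.48 at 24 h (from -1.15 to 2.12). Its control wells were the widest of all at 2 h, from 20.21 to 24.64, while its salt wells lay between 19.16 and 19.48. STF4 had -0.32 and -0.27. CRF5, a cytokinin response factor, had -0.36 and 0.57, but at 24 h it passed when each plate's own ubiquitin was used (1.26, adjusted p = 2.77e-04) and with no reference (2.05, adjusted p = 1.61e-05). No value of these last 2 against flooded roots is given, because on the flood root plate the mean Ct of the column read as STF4 was 20.26 and that of CRF5 17.05 at 2 h, whereas in salt roots they were 17.09 and 20.24, and in the other root groups STF4 was the earlier as well.

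The 2 times gave much the same order of targets. Of 22 targets 20 had the same sign at 2 h and 24 h, and Pearson's r of the log2 fold changes across the 22 was 0.872, a description in which ubiquitin and plates are shared among the points. No difference between the times passed the limma interaction (0% of 22), and 3 had an unadjusted p under 0.05. These were SlIDD12 (-3.28, standard error 1.02, adjusted p = 0.113), SlIDD9 (-1.39, standard error 0.55, adjusted p = 0.184) and SlIDD6 (-1.54, standard error 0.67, adjusted p = 0.235), all smaller at 24 h. The Ct values, with ubiquitin not subtracted, describe the moves within each group. From 2 h to 24 h the mean Ct of no target in salt roots moved by over 1 cycle, and the largest move was 0.74 cycles, of SlIDD14. In control roots 6 targets moved by more than that limit. The control Ct of SlIDD12 moved by -3.09 cycles and that in salt roots by 0.20, and for SlIDD9 the moves were -1.44 and -0.03, for SlIDD6 -1.17 and 0.38 and for SlIDD13 -1.63 and 0.23. For SlIDD14 and CRF5 the control Ct moved the other way, by 1.18 and 1.055, and the salt Ct by 0.74 and 0.14. Ubiquitin moved by 0.58 in control and 0.59 in salt roots. On the control plates it went from 16.50 to 17.71 on the first and from 16.08 to 16.09 on the second. The spread between wells was also wider in controls, with a median SD of 0.53 cycles at 2 h against 0.29 in salt roots, and of 0.33 against 0.20 at 24 h.

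**Figure D3:**
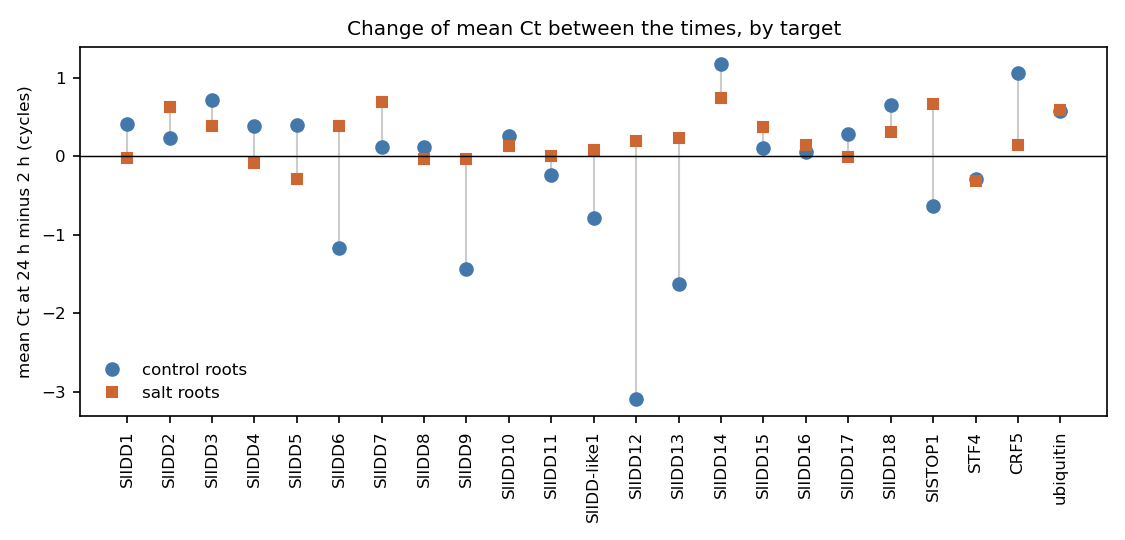
Change of the mean Ct from 2 h to 24 h in cycles (vertical axis) for each target and ubiquitin, in control roots (blue circles) and salt roots (orange squares), joined by a grey line. Salt roots stay within 0.74 cycles of 0, and the control value of SlIDD12 lies lowest, at -3.09.

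Set against shoots of the same seedling groups, the response of roots differed for 9 targets at 2 h and for 15 at 24 h (limma interaction, adjusted p under 0.05). It was the higher for 4 targets (18.2%) and the lower for 5 (22.7%) at 2 h, and at 24 h the higher for 4 (18.2%) and the lower for 11 (50%). The 4 higher ones, SlIDD3, SlIDD9, SlIDD12 and SlIDD14, were the same at both times. For SlIDD9 and SlIDD3 the gap took in a fall under salt in shoots. SlIDD9 had log2 fold changes of -5.98 and -3.47 in shoots against 2.09 and 0.70 in roots. For SlIDD3 they were -2.99 and -1.39 in shoots against 1.14 and 1.48 in roots. The value of SlIDD9 in shoots at 2 h rested on 2 control wells and on salt wells with an SD of 2.59 cycles. For SlIDD14 the root value exceeded that of shoots by 6.12 at 2 h (standard error 0.60, adjusted p = 9.78e-08) and by 6.84 at 24 h (standard error 0.69, adjusted p = 8.51e-09), the widest gap of any target at 24 h, and it was lower under salt in shoots at both times (-1.02 and -1.30). In shoots salt raised 22.7% of the targets and lowered 13.6% at 2 h, and raised 63.6% and lowered 13.6% at 24 h. SlIDD2 and SlIDD7, which were lower in roots at 24 h, were higher in shoots then, by 1.21 and 1.41, and roots lay below shoots by 3.20 (a difference of -3.20, standard error 0.56, adjusted p = 7.33e-05) and by 2.81 (-2.81, standard error 0.63, adjusted p = 3.56e-04). SlIDD-like1 also lay apart, with a difference of -3.37 at 24 h (standard error 0.70, adjusted p = 1.84e-04). In root and shoot alike SlIDD4, SlIDD5, SlIDD6, SlIDD8, SlIDD10 and SlSTOP1 showed no difference past the threshold at either time, with intervals that do not settle whether they act alike. Whether the control plates of the 2 tissues were exchanged is not settled, and with the control columns swapped between tissues 19 of these 24 differences turned their sign.

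**Figure D4:**
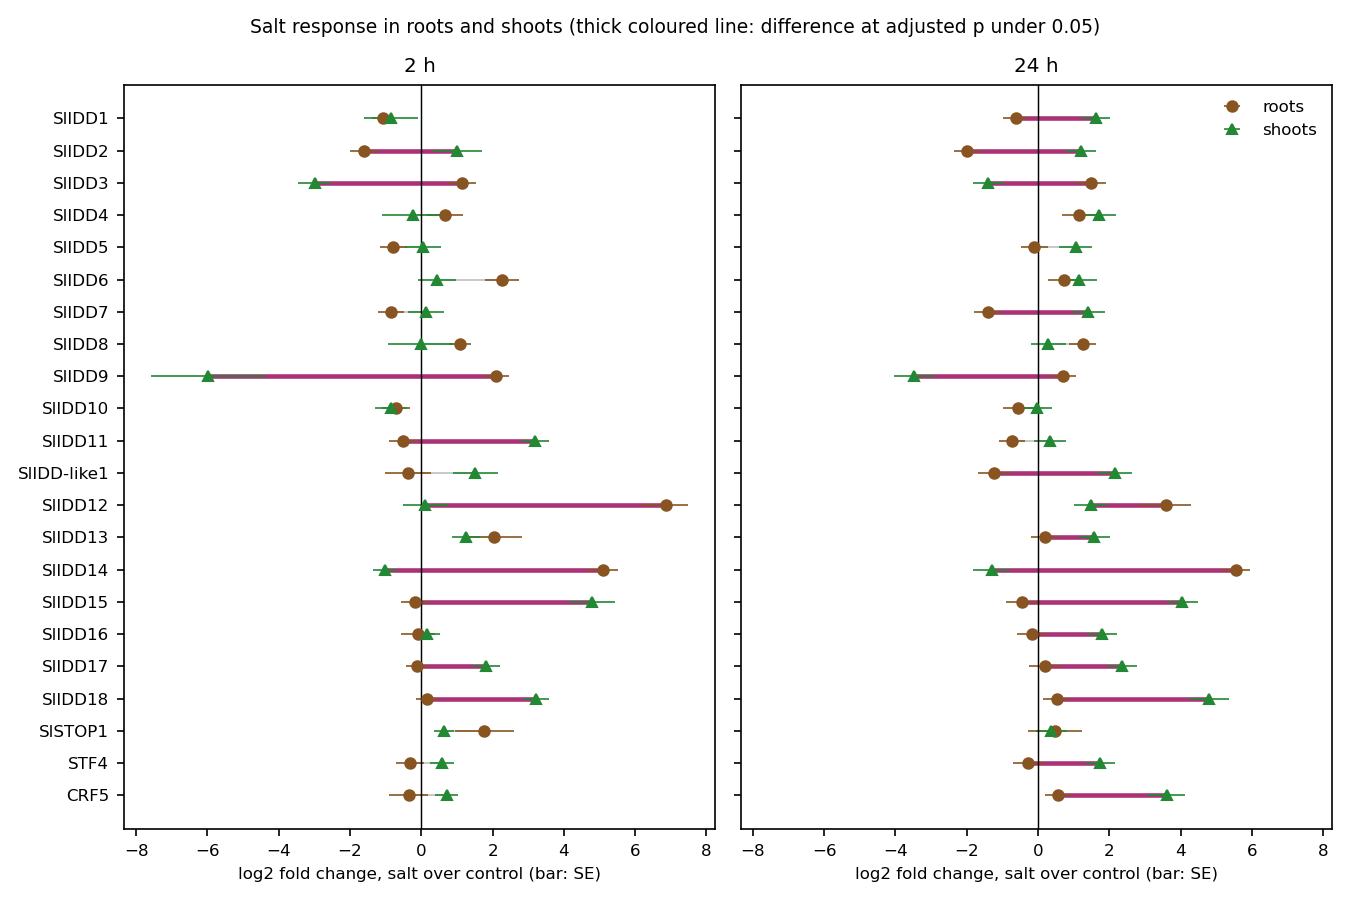
Log2 fold change of salt over control (horizontal axis, bars for the standard error) of the 22 targets in roots (brown circles) and shoots (green triangles) at 2 h and 24 h. Thick purple lines join pairs whose difference passed at adjusted p under 0.05; for SlIDD14 roots lie at 5.09 and 5.54 and shoots at -1.02 and -1.30.

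How far a target moved depends on what it is set against, since ubiquitin changed with salt. Set against the mean of all targets, 4 rose and 9 fell at 2 h, whereas 4 rose and 6 fell at 24 h. That mean takes in SlIDD12 and SlIDD14 themselves, at 6.86 and 5.09 at 2 h. It lay above the median of -0.11 and so shifted every target downward. With no reference, which leaves the amount of cDNA uncorrected, 15 rose and 0 fell at 2 h, whereas 19 rose and 1 fell at 24 h. SlIDD12 and SlIDD14 were higher under all 4 choices at both times, from 3.18 to 8.36 for SlIDD12 and from 4.36 to 7.02 for SlIDD14. SlIDD2 was lower under all 4 at 24 h, from -2.67 to -0.50. SlIDD3 at 24 h passed under all 4 as well, from 0.80 to 2.96, and SlIDD6 and SlIDD9 did so at 2 h. SlIDD1 at 2 h and SlIDD7 at 24 h were lower against ubiquitin and the mean of all targets and not without a reference, where they stood at 0.42 (adjusted p = 0.105) and 0.08 (adjusted p = 0.725).

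**Figure D5:**
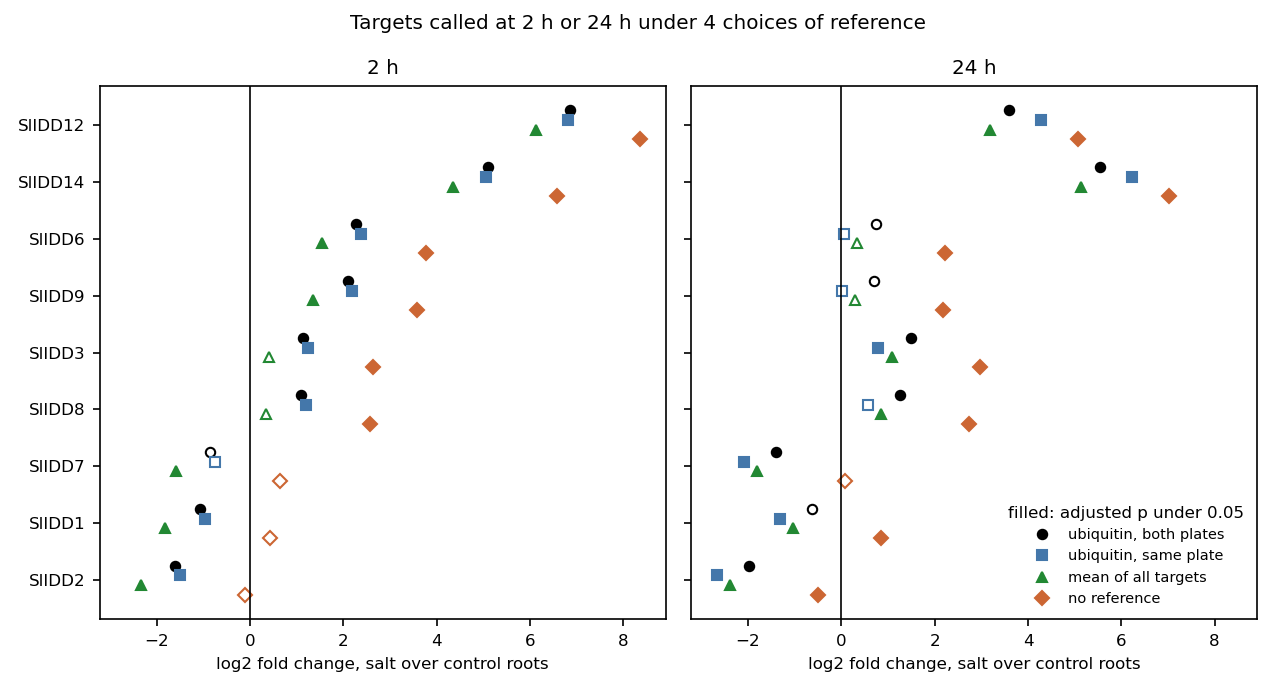
Log2 fold change of salt over control roots (horizontal axis) of the 9 targets that passed at either time, under 4 references: ubiquitin of both plates (black circles), ubiquitin of the same plate (blue squares), the mean of all targets (green triangles) and none (orange diamonds). Filled symbols passed at adjusted p under 0.05; only SlIDD12 and SlIDD14 are filled throughout on the right of 0 in both panels.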

How the data were processed

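The authors deposited Ct values, the raw PCR cycles of each well with no reference gene taken off (another unit than counts or fold values). Per the methods of the study, RNA of roots was treated with DNase, 1 microgram was copied to cDNA and amplified with SYBR Green on a T100 Thermocycler and read in CFX Maestro, and 4 biological samples with 2 technical replicates were used. Ratio values in the authors' other sheets (relative quantities and fold changes by the 2^-ddCt method) were not used. Titles and source names of the samples set stress and tissue, as other label fields name other treatments or tissues. By the labels the plates stand for the 2 times, but the rows were read as the 2 times, a reading taken from an earlier match to the study's tables, which is no independent evidence. Wells of row H whose names repeat were left out on the first plate (6 wells, 5 with a value) and kept in plate order on the second. Columns of per-sample values without a sample numbered 0.

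For each comparison, minus Ct per well entered limma 3.58.1 under R 4.3.3, with lmFit and eBayes. The ubiquitin mean of each group over both plates was subtracted and its error added, each group's variance apart, with Satterthwaite degrees of freedom. Two-sided p-values were adjusted over the 22 targets by Benjamini-Hochberg, at 0.05, and intervals are at 95%. Differences between times or tissues were tested as limma interactions, and ubiquitin by an exact permutation test. The fit was also run on simulated data of independent wells with no shift of ubiquitin between plates. Such a run cannot test p-values where wells share a plant or plates differ. Ct of every well is given for targets that passed at either time, for SlIDD4 and SlIDD13, which the study names for salt roots, and for ubiquitin. Other wells shown were chosen after their values were seen. The members, the family groups (branches and duplicated blocks in the study) and the tests were chosen with earlier results of these data known. Alternatives were other references, one fit over all root groups, each well row left out, an exact permutation test, an unadjusted p, medians, the control columns of the other tissue and irregular wells in plate order. Added after seeing the data were irregular wells left out on both plates and the direct comparisons with low pH and flooded roots. Summaries and plots used Python 3.11.15 with matplotlib 3.10.9, pandas 2.3.3 and numpy 2.4.6. Sequences of primers and amplicons were not used here.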

Additional observations from a re-analysis of the deposited data

Results flagged for a closer look

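In 4 of 60 groups of wells in salt and control roots, 1 well lay far from the others by Dixon's test, and chance alone marks about 1 in 20 groups. SlIDD-like1 had a Ct of 22.36 in row A of salt roots at 2 h, against 20.54 to 20.60 in the other wells. SlIDD3 had 24.17 in row A of control roots at 2 h, against 23.11 to 23.24. SlIDD5 had 20.45 in row B of salt roots at 2 h, against 19.69 to 19.81, and SlIDD18 had 21.73 in row H of salt roots at 24 h, against 22 to 22.03.

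The salt response of roots minus that of shoots passed the limma interaction for 24 values, all on the log2 scale. At 2 h roots exceeded shoots by 8.07 for SlIDD9, 6.75 for SlIDD12, 6.12 for SlIDD14 and 4.13 for SlIDD3. The differences below 0 at 2 h were -4.98 for SlIDD15, -3.69 for SlIDD11, -3.06 for SlIDD18, -2.61 for SlIDD2 and -1.94 for SlIDD17. At 24 h roots exceeded shoots by 6.84 for SlIDD14, 4.16 for SlIDD9, 2.88 for SlIDD3 and 2.11 for SlIDD12. The gaps of SlIDD9 took in shoot values of -5.98 at 2 h and -3.47 at 24 h, and those of SlIDD3 -2.99 and -1.39. Those below 0 at 24 h were -4.49 for SlIDD15, -4.27 for SlIDD18, -3.37 for SlIDD-like1, -3.20 for SlIDD2, -3.04 for CRF5, -2.81 for SlIDD7, -2.24 for SlIDD1, -2.17 for SlIDD17, -2.02 for STF4, -1.97 for SlIDD16 and -1.38 for SlIDD13.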

How the results depend on the processing

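SlIDD14 and SlIDD12 kept their calls at both times under the 4 references and with each well row left out, but SlIDD14 at 24 h had 1.20 (adjusted p = 0.0622) against the control columns of shoots. Counts of calls moved more. Leaving out each replicate row in turn gave 3 to 7 targets higher and 0 to 3 lower at 2 h, 2 to 3 higher and 1 to 2 lower at 24 h and 0 to 1 that differed between the times. Row 3 brought the lowest counts at 2 h (3 higher and 0 lower), 2 were higher at 24 h without row 3 or row 4, 1 was lower then without row 1, 2 or 4, and 1 differed between the times without row 4. Between roots and shoots 8 to 12 targets then differed at 2 h and 12 to 13 at 24 h, and the ubiquitin change stayed between -1.55 and -1.37 cycles at 2 h and between -1.50 and -1.44 at 24 h. With no reference 15 rose and 0 fell at 2 h, 19 rose and 1 fell at 24 h, and 2 differed between the times. The mean of all targets gave 9 lower at 2 h and 6 at 24 h, and ubiquitin of the same plate 7 higher and 6 lower at 24 h, with 4 that differed between the times. One fit over all 4 root groups called 4 lower at 2 h. The exact permutation test, adjusted over 22 targets, called 0 in each direction and time, with wells too few for a lower p. Unadjusted, 3 targets differed between the times. With control columns of the other tissue 4 were lower at 2 h, 10 higher and 0 lower at 24 h, and 6 differed between the times. No paired analysis was possible because each sample is a single plate and the labels give no number that links wells of different groups.

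Signs turned in the following cases, whose cause was not tested. With no reference the log2 fold change in roots at 2 h was 0.42 for SlIDD1, 0.99 for SlIDD11, 1.31 for SlIDD15, 1.40 for SlIDD16, 1.38 for SlIDD17 and 1.18 for STF4. At 24 h it was 0.86 for SlIDD1, 0.91 for SlIDD10, 0.75 for SlIDD11, 1.04 for SlIDD15, 1.31 for SlIDD16, 1.38 for SlIDD5, 0.083 for SlIDD7 and 1.21 for STF4. The differences between roots and shoots at 24 h became 0.074 for SlIDD1, 0.94 for SlIDD13, 0.34 for SlIDD16, 0.15 for SlIDD17 and 0.30 for STF4. With control columns of the other tissue the values in roots at 2 h were 1.42 for SlIDD1, 1.27 for SlIDD2, -1.13 for SlIDD3, -0.29 for SlIDD6, -1.94 for SlIDD9, 2.78 for SlIDD11 and 3.79 for SlIDD15, and at 24 h 2.41 for SlIDD1, 0.87 for SlIDD2, -0.35 for SlIDD3, 2.81 for SlIDD15 and 2.12 for STF4. The differences between roots and shoots at 2 h became 3.13 for SlIDD2, -0.41 for SlIDD3, 2.89 for SlIDD11, -4.60 for SlIDD12, -0.15 for SlIDD14, 2.98 for SlIDD15 and 1.95 for SlIDD18. At 24 h they became 0.58 for CRF5, 0.78 for SlIDD-like1, 3.82 for SlIDD1, 2.51 for SlIDD2, -0.80 for SlIDD3, 5.13 for SlIDD13, -1.84 for SlIDD14, 2.00 for SlIDD15, 0.081 for SlIDD16, 2.08 for SlIDD17, 3.66 for SlIDD18 and 2.77 for STF4.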
